A study of Mus musculus with 20 samples.

Results

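The response of cultured thymic ILC2 to IL-25 and IL-33 given together was compared with the responses to each cytokine alone, to see for which genes the combined effect departed from the product of the single effects. ILC2 are innate lymphocytes, lacking antigen receptors, that produce type-2 cytokines. The cells were sorted as IL25R+ ILC2 from the thymus, and the donors were young WT males. The comparison used 12 of the 20 libraries of the series, chosen by their labels as all libraries of IL25R+ cells; the other 8 were ST2+ cells and were not used. All 12 wells were kept in medium with 10 ng/mL IL-7, first for 12 h and then, in fresh medium, for another 24 h. Treatment then lasted 24 h with PBS vehicle, 10 ng/mL rIL-25, 10 ng/mL rIL-33 or both, with 3 libraries a group. RNA was counted by MARS-seq, a method that reads the 3′ ends of polyadenylated transcripts. The labels do not say whether the 3 libraries of a group came from separate mice or cultures, so the p-values measure the spread between these libraries, which may be technical.

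IL-25 acts through a receptor of IL-17RA and IL-17RB and the adaptor Act1, and IL-33 through ST2, the product of Il1rl1, with its partner IL-1RAP and the adaptor MyD88. Both routes use TRAF6 and reach NF-kB and the MAP kinases, and in ILC2 both are known to induce type-2 cytokines such as IL-13. The measure was a difference of log2 levels, both minus IL-25 minus IL-33 plus vehicle. A value of 0 means that the fold change with both equalled the product of the single fold changes, a positive value a level above that product, and a negative value a level below it. Levels are given as CPM, counts scaled to a common library size, in each library, in the order of the labels' replicate numbers.

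The libraries did not divide by treatment alone. Glycam1, a secreted mucin-like glycoprotein of milk and of lymph node vessels, was above 10 CPM in 7 libraries and not in the other 5. The 7 were all vehicle libraries, all libraries with both cytokines and IL-33 library 3; the 5 were all IL-25 libraries and IL-33 libraries 1 and 2. Of 7 tested genes of class II antigen presentation, 4 did not overlap between the 7 libraries and the 5, as did 187 (2.11%) of all 8850 tested genes. The promoters of 2 of them, H2-Aa and H2-Eb1, are printed because these genes had some of the largest interactions and shared the pattern; the sequences are RefSeq's on GRCm38.p6, 250 bases before to 50 after the start of the gene, 5′ to 3′ on the strand of the gene. Capitals mark CTGATTGG, an inverted CCAAT motif known as the Y box of class II genes. H2-Aa lies at chr17:34287774-34288073 on the minus strand and H2-Eb1 at chr17:34305617-34305916 on the plus strand.
H2-Aa: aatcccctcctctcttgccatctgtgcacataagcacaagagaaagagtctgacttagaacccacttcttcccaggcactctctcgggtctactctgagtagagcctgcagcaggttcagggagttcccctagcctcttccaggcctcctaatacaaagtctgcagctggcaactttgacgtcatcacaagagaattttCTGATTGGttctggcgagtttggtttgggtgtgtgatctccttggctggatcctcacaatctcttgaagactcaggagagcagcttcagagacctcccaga
H2-Eb1: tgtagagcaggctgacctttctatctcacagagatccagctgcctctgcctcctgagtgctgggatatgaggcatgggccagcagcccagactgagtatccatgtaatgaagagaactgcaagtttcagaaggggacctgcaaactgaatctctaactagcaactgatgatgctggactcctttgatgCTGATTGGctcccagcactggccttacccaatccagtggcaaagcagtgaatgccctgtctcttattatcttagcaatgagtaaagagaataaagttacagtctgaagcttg
The motif, searched on both strands, was present once in each of these promoters and in 1346 of the 32851 promoters of the table (4.10%), which is a description of the letters alone. H2-Ab1 was looked for as well, and 2 of the 3 symbols matched the table.

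Of 8850 genes tested, 208 (2.35%) had an interaction past an adjusted p of 0.05 in edgeR's quasi-likelihood test with Benjamini-Hochberg adjustment. The level with both cytokines lay above the product for 92 genes (1.04%) and below it for 116 (1.31%). At an unadjusted p under 0.05 the same test held 1516 genes (17.1%), the share against which such counts in gene lists are read. At least 2-fold departures numbered 68 above and 62 below, and the median of all tested genes was -0.02. Of the 92 genes above the product, 88 had both single-cytokine means below vehicle, and for 42 the mean with both was the highest of the 4 groups. Of the 116 below it, 101 had both single-cytokine means above vehicle, and for 74 the mean with both was the lowest of the 4. Vehicle enters the measure with a plus sign, so that part of this pattern follows from how the genes were chosen, and no test was made of it. All 92 also lay above, and all 116 below, the sum of the single increments on the CPM scale, which is the other common meaning of additive. The product of group means exceeds the sum when both single means lie on the same side of vehicle. For 88 of the 92 the place above the sum therefore follows from the place above the product. It likewise follows for 15 of the 116, with single means on opposite sides of vehicle, and not for the other 4 and 101 genes.

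The division by Glycam1 touched this comparison in a way set by which groups lay on which side. Take a gene that differs by d in log2 between the 7 libraries and the 5, and not by treatment. With 1 log2 level per library and equal weights, its interaction over all 12 libraries is 1.67 d. In the count fit used here the IL-33 group mean leans to its higher libraries. The fitted value then lies elsewhere between 1 d and 2 d when d is large. The same gene has 1 d when IL-33 library 3 stands alone for its group, 2 d when IL-33 libraries 1 and 2 do, and 0 when the side of the division is a term of the fit. No side held all 4 groups, so no interaction could be measured within a side. Among all tested genes 187 (2.11%) did not overlap between the 7 and the 5 libraries, 89 higher (1.01%) and 98 lower (1.11%) in the 7, and 68 of these were among the 208; that is 32.7% of the called genes and 36.4% of the divided ones. With IL-33 library 3 alone, 183 genes passed in edgeR and 85 of the 208 were among them, all 208 keeping their sign; the lone library is assumed there to vary like the other groups. 64 of those 85 overlapped between the sides. Without IL-33 library 3, 706 genes passed, among them all 208. With the side as a term 14 genes passed and none of the 208 did, while 173 of the 208 kept their sign; at an unadjusted p under 0.05 that fit held 1173 genes. With 1 log2 level per library and equal spread, the SE of that fit is 2.03 times that of the 12-library fit. That fit rests on the difference between IL-33 library 3 and IL-33 libraries 1 and 2. The median fitted SE of the 208 genes was 0.25 over all 12 libraries and 0.48 with the side as a term. Treatment and side cannot be told apart for a gene whose 2 sides do not overlap. Where the sides overlap, a smaller difference between them still enters the interaction.

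**Figure D1:**
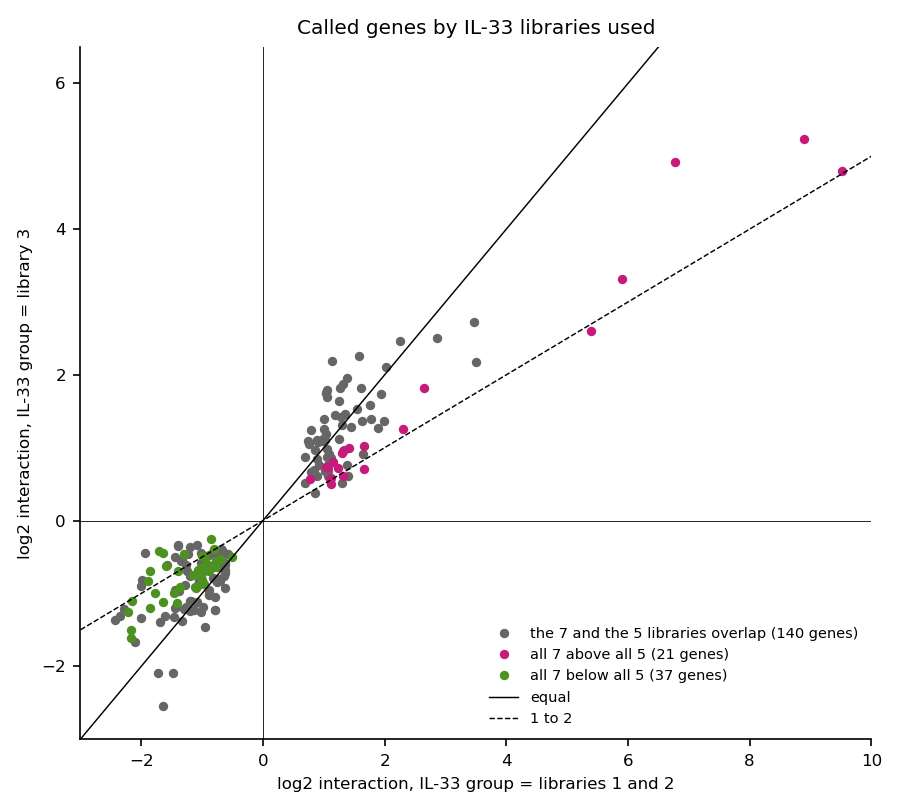
Interaction of 198 called genes when the IL-33 group is libraries 1 and 2 (x axis, log2) or library 3 (y axis, log2), with 1 point a gene; 10 called genes with 3 counts or fewer in a group are left out. The 140 genes in grey overlap between the 7 libraries with Glycam1 and the 5 without and lie on both sides of the solid line of equal values, while the divided genes, 21 higher and 37 lower in the 7, include H2-Aa at 8.89 on the x axis and 5.23 on the y axis; the dashed line marks a ratio of 1 to 2.

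The gene of the IL-33 receptor was itself among the strongest departures below the product. Il1rl1 (chromosome 1, 40429570 to 40465415, plus strand, mm10), which encodes ST2, measured 10.5, 10.5 and 6.64 CPM with vehicle, 59.0, 85.0 and 60.5 with IL-25, 11.7, 12.3 and 22.2 with IL-33 alone and 33.4, 23.0 and 28.7 with both. The combined libraries lay above every vehicle and IL-33 library and below every IL-25 library. The mean with both was 28.4 ± 5.22 CPM (SD, n = 3), against a product of 114 and a sum of 74.3 CPM. The interaction was -1.96 ± 0.41 (SE, adjusted p = 0.0152 in edgeR). It was -2.54 ± 0.48 with IL-33 library 3 alone and -3.40 ± 0.81 with the side as a term (adjusted p = 0.0540 in edgeR). In the fit with the side this was the lowest adjusted p of the 208 genes, shared with 1700123O20Rik, Tmed2 and Trim59. The call ended without vehicle library 3 (-1.79, adjusted p = 0.0585) and without combined library 2 (-1.82, adjusted p = 0.0542), both in edgeR. Il1rl1 was the 1 gene that passed of 12 tested receptor and adaptor genes, beside 2.35% of all tested genes. The median of the 12 was 0.06. At an unadjusted p under 0.05 in edgeR they held 2 genes, beside 17.1% of all tested genes. Il17rb, the specific chain of the IL-25 receptor, lay between 10.8 and 34.0 CPM in every library and had an interaction of -0.15 ± 0.40 (adjusted p = 0.887). Il17ra, the shared chain, was at 626 to 677 CPM with vehicle, 398 to 459 with IL-25, 533 to 633 with IL-33 and 401 to 404 with both. Its combined level lay within the range of the IL-25 libraries, and its interaction was 0.04 ± 0.16 (adjusted p = 0.923 in edgeR).

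A pair of surface receptors of activated lymphocytes also lay below the product. Icos (chromosome 1, 60977927 to 61000320, plus strand), a costimulatory receptor that ILC2 use for survival and cytokine production, measured 12.4, 8.20 and 14.2 CPM with vehicle and 44.7, 41.8 and 50.8 with IL-25. It measured 33.6, 13.7 and 36.0 CPM with IL-33 alone and 33.4, 38.3 and 25.5 with both. Every combined library was above vehicle and below every IL-25 library, and the combined libraries overlapped with the wide range of the IL-33 group. The interaction of Icos was -1.69 ± 0.41 (adjusted p = 0.0348 in edgeR), but the call ended on leaving out any one library other than IL-33 libraries 2 and 3 (adjusted p = 0.0587 to 0.0884 in those fits) and in limma-voom (-1.56, adjusted p = 0.0672). It held with IL-33 library 3 alone (-2.10, adjusted p = 0.00302). Ctla4, the neighbouring gene (chromosome 1, 60887000 to 60915832, plus strand) and an inhibitory receptor, measured 47.7, 41.0 and 30.4 CPM with vehicle, 77.1, 51.7 and 45.9 with IL-25, 92.0, 70.2 and 64.7 with IL-33 alone and 46.5, 35.6 and 33.8 with both. Its combined libraries overlapped with vehicle and lay below all IL-33 libraries. The interaction of Ctla4 was -1.52 ± 0.30 (adjusted p = 0.0118), and -1.31 ± 0.34 with IL-33 library 3 alone (adjusted p = 0.0297), both in edgeR. Its call ended without IL-25 library 1 (-1.26, adjusted p = 0.0515) and without combined library 2 (-1.46, adjusted p = 0.0520). Icos and Ctla4 were the 2 that passed of 14 tested costimulatory, checkpoint and activation genes, beside 2.35% of all tested genes. None was called above the product, and the median was -0.30. At an unadjusted p under 0.05 in edgeR the list held 4 genes, beside 17.1% of all tested genes. Cd69, an early activation marker that holds lymphocytes in tissue, measured 118, 126 and 138 CPM with both, above the other 9 libraries, against a sum of 69.2 CPM. Its interaction of 0.94 ± 0.33 did not pass (adjusted p = 0.141 in edgeR), though it did without vehicle library 1 (1.31, adjusted p = 0.0377).

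**Figure D2:**
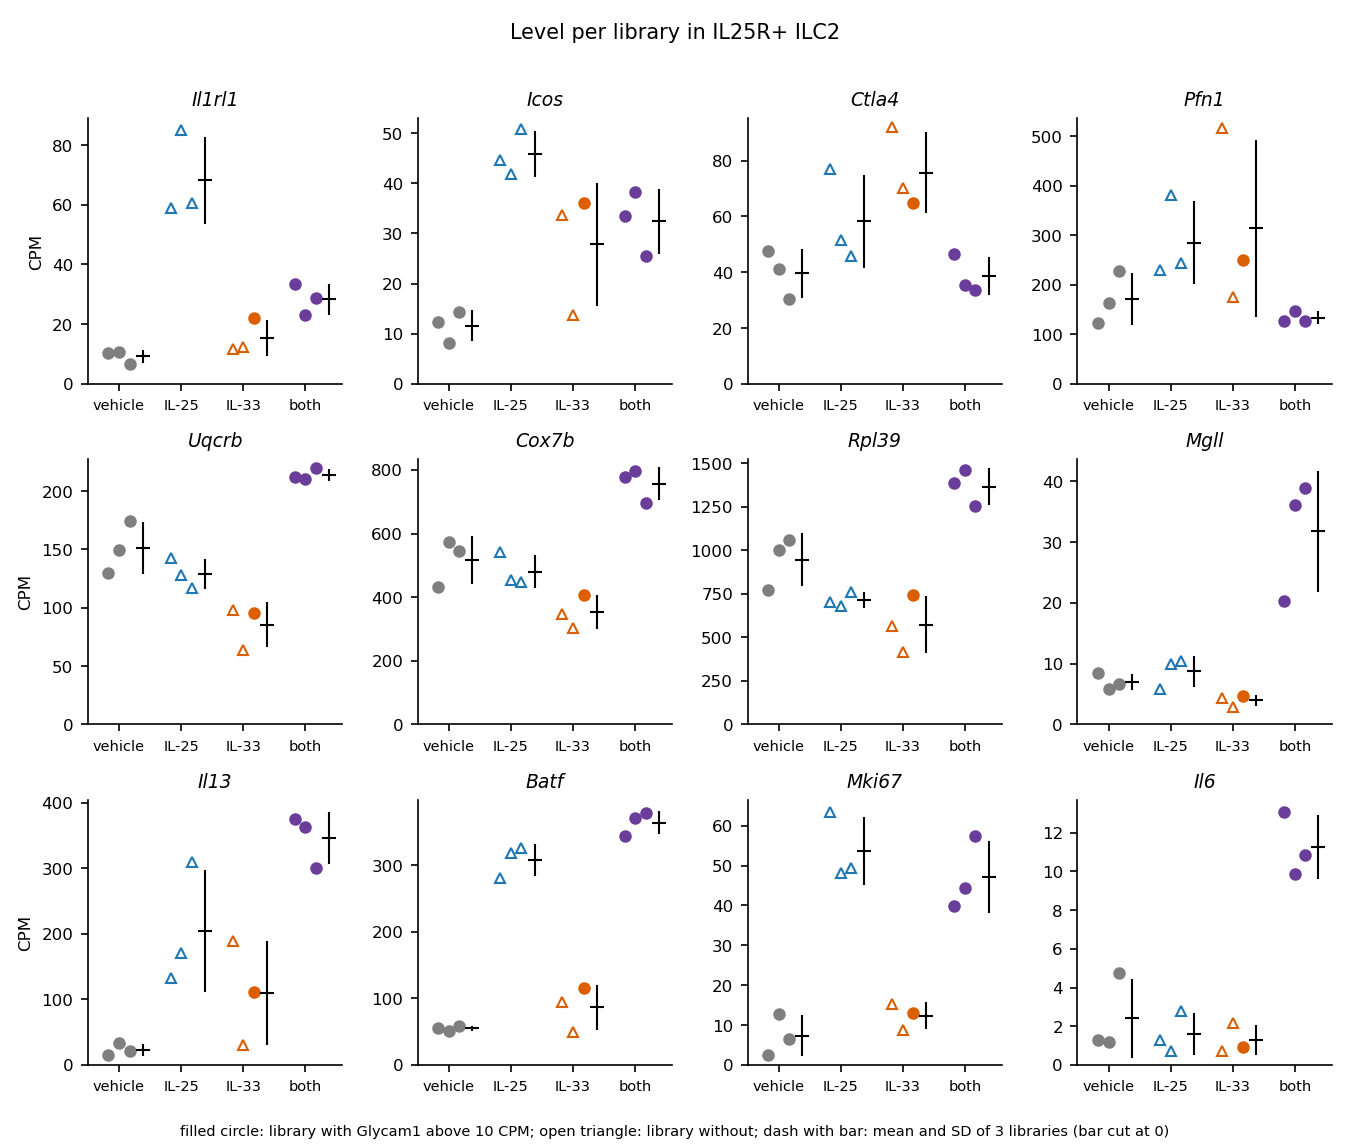
CPM (y axis, from 0) of 12 genes in each of the 12 libraries, grouped by treatment (x axis), with the mean and SD of 3 libraries beside the points; filled circles are the 7 libraries with Glycam1 above 10 CPM and open triangles the other 5. Il1rl1 with both lies between 23.0 and 33.4 CPM, below the IL-25 libraries at 59.0 to 85.0, while Uqcrb with both lies at 210 to 220 CPM, above the other 9 libraries.

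None of the tested genes in the lists of type-2 cytokines and of other cytokines and chemokines passed in edgeR, DESeq2 or limma-voom. Outside the lists, and named after their values were seen, Cxcl12 and Cxcl1, both on the Glycam1 division, and Tgfb3 passed above the product in edgeR (adjusted p = 0.000642, 0.00794 and 0.0472). The call of Tgfb3 (1.01) ended on leaving out any one of 9 libraries (adjusted p = 0.0548 to 0.129), with IL-33 library 3 alone (0.88, adjusted p = 0.17), without a filter on low counts (adjusted p = 0.0569), in DESeq2 (adjusted p = 0.0637) and in limma-voom (adjusted p = 0.0533). Il13 (chromosome 11, 53631324 to 53634702, minus strand), the type-2 cytokine that acts on epithelium and fibroblasts, measured 15, 32.8 and 21.8 CPM with vehicle, 133, 171 and 310 with IL-25, 189, 30.4 and 112 with IL-33 alone and 375, 364 and 301 with both. IL-33 library 2 lay within the vehicle range, and the combined libraries overlapped with IL-25 library 3. The mean with both, 346 ± 40.0 CPM (SD, n = 3), differed from the sum of increments of 292 CPM by 54.6 ± 74.4 (SE) and lay under the product of 973. On the log2 scale the interaction was -1.56 ± 0.58 (adjusted p = 0.161 in edgeR). It passed without IL-33 library 2, in which Il13 was lowest of its group (-2.03, adjusted p = 0.00883), and with IL-33 library 3 alone (-1.60 ± 0.38, adjusted p = 0.0157). Il4, the other type-2 cytokine with enough counts, stayed between 1.45 and 9.72 CPM and had an interaction of -0.58 ± 0.79 (adjusted p = 0.761). Il5 and Il9 had too few counts for the test. Il5, which drives eosinophil growth, was between 0 and 4.46 CPM in all libraries but IL-33 library 1, at 13.9. Il9, a growth factor of mast cells and ILC2, had 0 counts in all IL-25 libraries and 118 CPM in combined library 2, against 1.45 and 14.7 in the other combined libraries, so that 1 library carried its level; all 7 libraries with Glycam1 held Il9 counts and all 5 without held 0.

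Il6, a cytokine with many targets, stood out by its levels: 1.31, 1.17 and 4.74 CPM with vehicle, 1.30, 0.708 and 2.78 with IL-25, and 0.731, 2.17 and 0.924 with IL-33. With both it measured 13.1, 9.85 and 10.8 CPM. All combined libraries were above the other 9, which held for 3.55% of all tested genes. The interaction of Il6 was 3.54 ± 0.99 (adjusted p = 0.0617 in edgeR), and without IL-33 library 3 it passed (3.40, adjusted p = 0.0448). Csf2, which encodes GM-CSF, was at 20.5, 2.17 and 20.3 CPM with IL-33 alone and 6.54, 11.5 and 14.7 with both, and its interaction was -0.35 ± 1.13 (adjusted p = 0.910). Ccl5, a chemokine for T cells, measured 442, 423 and 390 CPM with both against 290, 214 and 335 with IL-25 and at most 107 elsewhere, and its interaction of 0.58 ± 0.31 did not pass (adjusted p = 0.359 in edgeR); without IL-33 library 3 it did (0.99, adjusted p = 0.0160). Ltb, which encodes lymphotoxin beta, was at 2452 to 2681 CPM with both and 2550 to 2794 with IL-25, with an interaction of -0.09 ± 0.14 (adjusted p = 0.794). Of 11 tested cytokine and chemokine genes outside the type-2 group 0 passed (median -0.09), and of 3 tissue repair factors 0 (median -0.38). At an unadjusted p under 0.05 in edgeR they held 3 and 1 genes, and the 2 tested type-2 cytokines 1, beside 17.1% of all tested genes. Furin, listed as the protease that matures growth factors, was at 198, 142 and 162 CPM with both and 192, 140 and 159 with IL-25. The groups overlapped, and the interaction was -0.81 ± 0.27 (adjusted p = 0.117 in edgeR), past the threshold without IL-33 library 2 (-1.02, adjusted p = 0.0322).

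**Figure D3:**
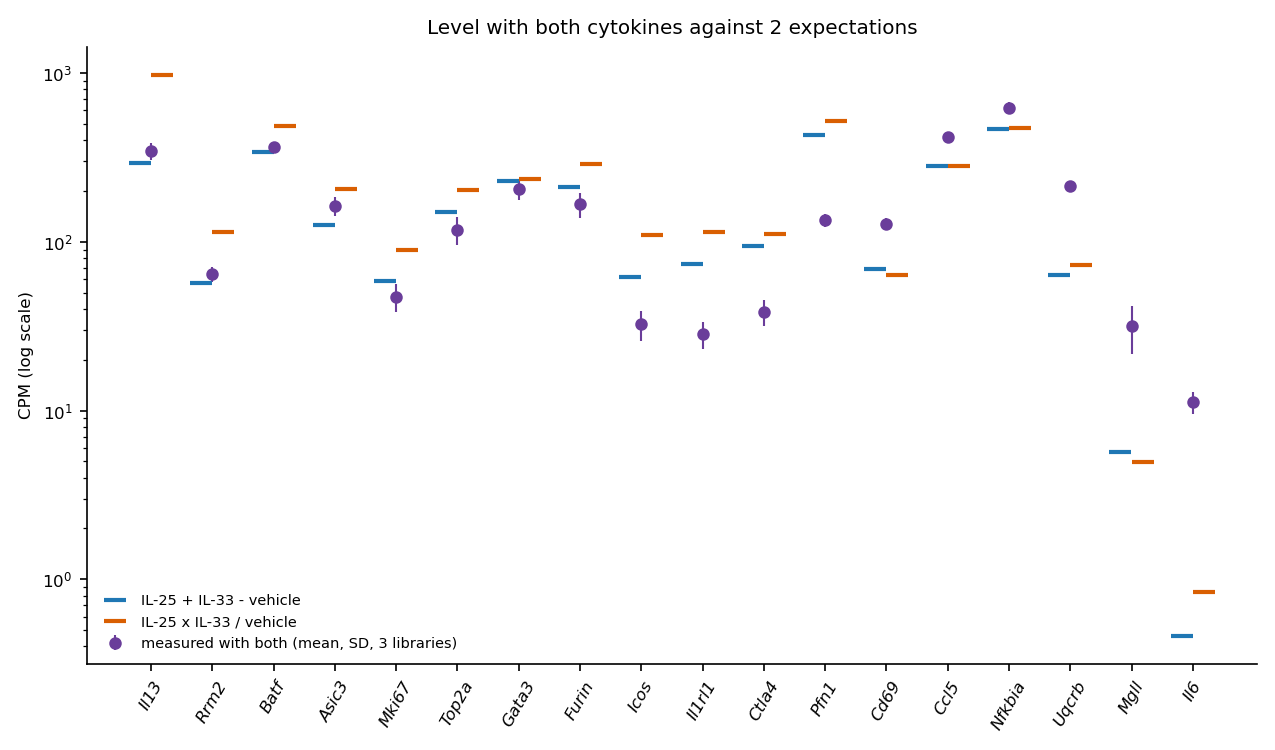
Mean CPM with both cytokines (points, with SD, n = 3; y axis on a log scale) of 18 genes (x axis) beside the sum of the single increments (blue dashes) and the product of the single folds (orange dashes). Il13 at 346 CPM lies near the sum of 292 and under the product of 973, Il1rl1 at 28.4 CPM under both, and Uqcrb at 214 CPM above both.

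No gene in 3 lists of shared signalling passed. Of 15 tested NF-kB subunits, inhibitors and feedback genes 0 passed. Estimates were above 0 for 12 of them, against 4303 of all 8850 genes. The median was 0.40, but 0.27 with IL-33 library 3 alone and 0.08 with the side as a term. Nfkbia, the NF-kB inhibitor that NF-kB itself induces, measured 657, 642 and 571 CPM with both, above the other 9 libraries, and had an interaction of 0.39 ± 0.18 (adjusted p = 0.263 in edgeR). Tnip1, which restrains NF-kB with A20, measured 177, 181 and 173 CPM with both, also above the other 9, with 0.43 ± 0.18 (adjusted p = 0.228). Nfkb1 went the other way, at 333, 287 and 280 CPM with both and 360, 392 and 333 with IL-25, with -0.61 ± 0.20 (adjusted p = 0.106 in edgeR); with IL-33 library 3 alone it passed (-0.86, adjusted p = 0.0136). Of 13 tested AP-1, immediate early and MAPK feedback genes 0 passed (median -0.14), and of 14 SOCS and STAT genes 0 (median 0.02). At an unadjusted p under 0.05 in edgeR these 3 lists held 6, 2 and 1 genes, beside 17.1% of all tested genes, and DESeq2 and limma-voom called 0 in each.

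Among 14 tested factors of ILC2 identity 1 passed, beside 2.35% of all tested genes. At an unadjusted p under 0.05 in edgeR they held 4 genes, beside 17.1% of all tested genes. Ets1, a transcription factor needed for ILC2 development, measured 180, 204 and 189 CPM with vehicle, 169, 178 and 181 with IL-25, 231, 267 and 302 with IL-33 alone and 171, 142 and 133 with both. The IL-33 libraries were the highest of all, and combined libraries 2 and 3 the lowest. The interaction of Ets1 was -0.73 ± 0.18 (adjusted p = 0.0403) and -0.93 ± 0.20 with IL-33 library 3 alone (adjusted p = 0.00712 in edgeR), but the call ended on leaving out any one of 9 libraries (adjusted p = 0.0627 to 0.116); it held without IL-33 library 1, IL-33 library 3 or combined library 1. It also ended without a filter on low counts (-0.73, adjusted p = 0.0526). Gata3, the master factor of type-2 lymphocytes, measured 97.4, 131 and 113 CPM with vehicle, 245, 207 and 222 with IL-25, 123, 113 and 124 with IL-33 alone and 233, 207 and 176 with both. Its combined and IL-25 libraries overlapped, and the interaction was -0.22 ± 0.19 (adjusted p = 0.616). Batf, an AP-1 partner active in stimulated ILC2, measured 344, 371 and 378 CPM with both against 281, 318 and 326 with IL-25; its combined mean of 365 CPM differed from the sum of 340 by 24.8 ± 26.1 (SE), and the interaction of -0.39 ± 0.27 did not pass (adjusted p = 0.490 in edgeR). With IL-33 library 3 alone Batf passed (-0.84, adjusted p = 0.0323). Irf4, a partner of Batf, measured 29.8, 46.5 and 16.6 CPM with both and at most 12.0 elsewhere. Its interaction was 3.67 ± 1.21 (adjusted p = 0.110), past the threshold without IL-33 library 3 (4.85, adjusted p = 0.01) and 0.02 with the side as a term.

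No gene of the proliferation lists passed. Estimates were below 0 for 13 of 16 tested DNA replication genes (median -0.26) and for 15 of 17 mitosis genes (median -0.53), against 4547 of all 8850 genes. At an unadjusted p under 0.05 in edgeR they held 2 and 4 genes, beside 17.1% of all tested genes, and DESeq2 and limma-voom called 0 in both lists. Mki67, the proliferation marker, measured 2.62, 12.9 and 6.64 CPM with vehicle, 63.5, 48.2 and 49.4 with IL-25, 15.3, 8.68 and 12.9 with IL-33 alone and 40.0, 44.3 and 57.3 with both. The combined and IL-25 libraries overlapped, the interaction was -1.09 ± 0.48 (adjusted p = 0.247 in edgeR), and the departure from the sum was -11.4 ± 8.01 CPM (SE). Rrm2, a subunit of ribonucleotide reductase, measured 69.7, 57.4 and 66.2 CPM with both and 64.1, 34.0 and 47.3 with IL-25, and departed from the sum by 7.35 ± 10.6 CPM. Cdkn1b, which encodes the cell cycle inhibitor p27 and was chosen after its values were seen, measured 68.7, 70.3 and 107 CPM with vehicle, 30.5, 34.0 and 34.1 with IL-25, 56.2, 30.4 and 36.9 with IL-33 alone and 58.1, 62.4 and 38.2 with both. Every combined library lay between the IL-25 libraries and vehicle, and the interaction was 1.67 ± 0.32 (adjusted p = 0.0109), with 1.82 ± 0.35 for IL-33 library 3 alone (adjusted p = 0.00302) and 1.52 without combined library 2, where the call ended (adjusted p = 0.0534), all in edgeR.

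Of 18 tested respiratory chain and ATP synthase genes 1 passed, above the product, beside 2.35% of all tested genes in either direction. Estimates were above 0 for 14 of them, against 4303 of all 8850 genes. In either direction, 8 were at an unadjusted p under 0.05 in edgeR, beside 17.1% of all tested genes. The median was 0.20, but 0.06 with IL-33 library 3 alone and -0.09 with the side as a term. The gene that passed, Uqcrb (chromosome 13, 66900617 to 66905378, minus strand), encodes a subunit of respiratory complex III and measured 129, 150 and 175 CPM with vehicle, 143, 128 and 117 with IL-25, 97.9, 63.7 and 95.1 with IL-33 alone and 212, 210 and 220 with both. The IL-33 libraries were the lowest and the combined libraries the highest. The interaction was 1.55 ± 0.21 (adjusted p = 0.000535) and 1.37 ± 0.23 with IL-33 library 3 alone (adjusted p = 0.000422 in edgeR), and the call held on leaving out each of the 12 libraries. Uqcrh, another complex III subunit, had -0.75 ± 0.23 (adjusted p = 0.0899 in edgeR) and passed, in the opposite direction to Uqcrb, without IL-33 library 3 (-0.90, adjusted p = 0.00494). Cox7b, a complex IV subunit outside the list and chosen after its values were seen, measured 432, 573 and 545 CPM with vehicle, 541, 453 and 447 with IL-25, 347, 303 and 408 with IL-33 alone and 777, 795 and 697 with both, with 1.20 ± 0.19 (adjusted p = 0.00174). Slc25a12, the mitochondrial aspartate-glutamate carrier, also chosen afterwards, measured 81.4, 81.5 and 85.4 CPM with both and 42.4 to 56.9 in the other 9 libraries, with 1.03 ± 0.21 (adjusted p = 0.0118 in edgeR). The last 2 genes were also called on leaving out each library in turn, but with IL-33 library 3 alone Slc25a12 was not (0.98, adjusted p = 0.0548).

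Mgll (chromosome 6, 88724412 to 88828360, plus strand), the monoacylglycerol lipase that frees fatty acids and breaks down an endocannabinoid, measured 8.5, 5.86 and 6.64 CPM with vehicle, 5.83, 9.92 and 10.4 with IL-25, 4.38, 2.89 and 4.62 with IL-33 alone and 20.3, 36.1 and 38.9 with both. The combined libraries were above the other 9, and neither single cytokine group lay above all of vehicle. The interaction was 2.74 ± 0.57 (adjusted p = 0.0128) and 2.5 ± 0.74 with IL-33 library 3 alone (adjusted p = 0.0668). The call ended without vehicle library 1 (2.55, adjusted p = 0.0605) and without combined library 2 (2.64, adjusted p = 0.0527), all in edgeR. Mgll was the 1 that passed of 8 tested genes of triglyceride and lipid handling (median -0.03), beside 2.35% of all tested genes. Dgat2, which makes triglycerides, measured 0.654, 3.51 and 0.949 CPM with vehicle, 3.24, 4.96 and 1.39 with IL-25, 17.5, 5.06 and 21.2 with IL-33 alone and 34.9, 19.1 and 36.3 with both, and its interaction was -0.02 (adjusted p = 0.986). All combined libraries were above every vehicle and IL-25 library. None of the genes in 5 further lists passed: 0 of 14 cholesterol and fatty acid synthesis genes (median 0.16), 0 of 13 glycolysis genes (median -0.25), 0 of 10 ATF4 and serine pathway genes (median 0.26), 0 of 18 genes of the unfolded protein response and secretion (median -0.14) and 0 of 13 interferon response genes (median 0.12). At an unadjusted p under 0.05 in edgeR these lists held 0, 4, 1, 5 and 2 genes, beside 17.1% of all tested genes; limma-voom called 0 in each, and DESeq2 called 1, of the unfolded protein response and secretion list. Of 6 tested neuropeptide, lipid mediator and adrenergic receptor genes 2 were at an unadjusted p under 0.05 in edgeR. Calcrl, the receptor chain for the neuropeptide CGRP, was the 1 of the 6 that passed, beside 2.35% of all tested genes. It measured 26.8, 28.1 and 28.5 CPM with vehicle, 19.4, 16.3 and 23.7 with IL-25, 8.77, 15.2 and 18.5 with IL-33 alone and 30.5, 46.0 and 25.5 with both. Both single-cytokine groups lay below vehicle without overlap, and the combined libraries overlapped with vehicle. The interaction of Calcrl was 1.78 ± 0.39 (adjusted p = 0.0209 in edgeR). The call ended without vehicle library 3 (1.76, adjusted p = 0.0573), IL-25 library 1 (1.77, adjusted p = 0.0569), IL-25 library 2 (1.66, adjusted p = 0.0559) or combined library 2 (1.48, adjusted p = 0.0876). It also ended with IL-33 library 3 alone (1.36, adjusted p = 0.109), and the value was 0.76 with the side as a term.

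Ribosomal protein genes lay on both sides of the product. Of 16 tested ribosomal protein genes, Rpl7 and Rps6 passed below the product, as did 1.31% of all tested genes, and the median was -0.13. At an unadjusted p under 0.05 in edgeR the list held 4 genes, beside 17.1% of all tested genes. Rps6 measured 965, 847 and 907 CPM with vehicle, 1331, 1241 and 1140 with IL-25, 996, 951 and 645 with IL-33 alone and 623, 570 and 771 with both, and its interaction was -0.85 ± 0.20 (adjusted p = 0.0318 in edgeR), turning to 0.17 with the side as a term. Rpl7 had -0.59 ± 0.16 (adjusted p = 0.0472). The call of Rps6 ended on leaving out any one of 7 libraries (adjusted p = 0.0504 to 0.115) and that of Rpl7 for any one of 11 (adjusted p = 0.0563 to 0.146). Neither passed with IL-33 library 3 alone, at -0.44 for Rps6 (adjusted p = 0.218) and -0.39 for Rpl7 (adjusted p = 0.199). Rpl39, a ribosomal protein gene outside the list and chosen after its values were seen, went the other way, at 1386, 1462 and 1254 CPM with both against 414 to 1062 in the other 9 libraries, with 1.66 ± 0.22 (adjusted p = 0.000535). Also outside the list and named after their values were seen, Rps27a (0.91), Rps28 (0.68) and Rpl22l1 (1.02) passed above the product. Rpl9 (-0.53) passed below it. None of them passed with the side as a term. Ribosomal protein genes have many near-identical processed copies, and how reads were shared among them is not given in the sources used here. Rbis, a ribosome biogenesis factor, measured 67.3, 92.5 and 112 CPM with vehicle, 75.2, 77.2 and 84.2 with IL-25, 41.6, 49.2 and 58.2 with IL-33 alone and 140, 150 and 122 with both, with 1.66 ± 0.24 (adjusted p = 0.000806 in edgeR).

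Of the genes called below the product on leaving out each library, 6 are described here. Hnrnph1 (chromosome 11, 50376990 to 50386528, plus strand), an RNA-binding splicing regulator, measured 78.5, 70.3 and 87.3 CPM with vehicle, 106, 111 and 93.9 with IL-25, 134, 156 and 136 with IL-33 alone and 83.5, 67.3 and 86.6 with both. Both single-cytokine groups lay above vehicle and the combined libraries lay within the vehicle range or just under it. The interaction was -1.24 ± 0.20 (adjusted p = 0.00174), -1.19 ± 0.23 with IL-33 library 3 alone (adjusted p = 0.00319) and -1.08 ± 0.38 with the side as a term (adjusted p = 0.200), all in edgeR. Srsf5, a splicing factor of the SR family, measured 462, 413 and 420 CPM with both, below the other 9 libraries at 510 to 726, as for 3.14% of all tested genes, with -0.81 ± 0.15 (adjusted p = 0.00800). Hnrnpl had -1.16 ± 0.23 (adjusted p = 0.0118 in edgeR). Spcs3, a signal peptidase subunit, measured 53.0, 32.8 and 32.3 CPM with vehicle, 89.4, 80.1 and 63.3 with IL-25, 74.5, 78.1 and 68.4 with IL-33 alone and 55.2, 50.9 and 51.6 with both, with -1.42 ± 0.25 (adjusted p = 0.00536). Stoml2, a mitochondrial inner membrane scaffold, had -1.16 ± 0.23 (adjusted p = 0.0118), and Nipsnap3b had -1.28 ± 0.23 (adjusted p = 0.00633 in edgeR). These 6 genes, Rpl39 and Rbis were called on leaving out each library in turn and with IL-33 library 3 alone. They were chosen after their values were seen, from 35 genes called in all 12 leave-one-out fits. Most of the 35 did not overlap between the sides, unlike the genes chosen. Overlap does not free the genes chosen from the side, since no side held all 4 groups. With the side as a term they kept their sign, Rpl39 at 0.68 and Rbis at 1.06, and none passed. Among the genes that did not overlap, for which treatment and side cannot be told apart, were Glycam1, Clu, Apoe and H2-Aa above the product. Dhx9, Gpx4, Hnrnpa1 and Ntan1 were such genes below it.

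**Figure D4:**
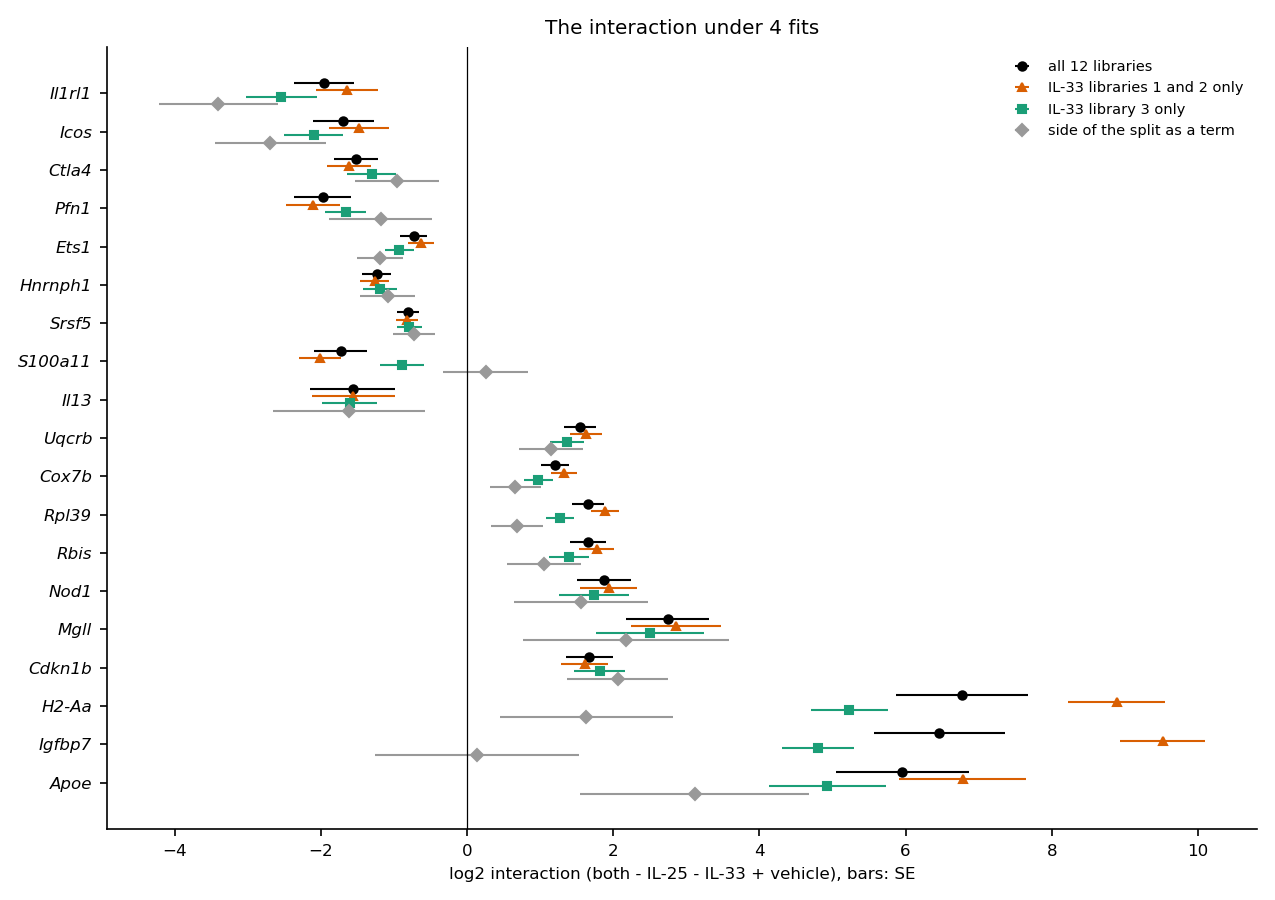
Log2 interaction (x axis; bars are SE) of 19 genes (y axis) in 4 fits, with all 12 libraries, with IL-33 libraries 1 and 2 only, with IL-33 library 3 only, and with the side of the division as a term. Hnrnph1 lies between -1.27 and -1.08 in all 4, S100a11 moves from -1.73 to 0.25 with the side as a term, and H2-Aa from 6.77 to 1.63.

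Other genes with the largest departures below the product included Pfn1 (chromosome 11, 70651850 to 70654644, minus strand), which encodes the actin-binding profilin 1. It measured 123, 163 and 229 CPM with vehicle, 230, 383 and 244 with IL-25, 516, 176 and 250 with IL-33 alone and 126, 148 and 127 with both. The combined libraries lay below all single-cytokine libraries and overlapped with vehicle. Its interaction was -1.97 ± 0.39 (adjusted p = 0.0118) and -1.66 ± 0.27 with IL-33 library 3 alone (adjusted p = 0.000316), and it was called on leaving out each library in turn. S100a11, a calcium-binding protein, measured 121, 161 and 201 CPM with both, below the other 9 libraries, with -1.73 ± 0.36 (adjusted p = 0.0153 in edgeR); it ended as a call without vehicle library 3 (-1.52, adjusted p = 0.0573), IL-25 library 1 (-1.43, adjusted p = 0.0643) or combined library 2 (-1.73, adjusted p = 0.0551). It also ended in DESeq2 (-1.73, adjusted p = 0.0502) and with IL-33 library 3 alone (-0.89, adjusted p = 0.115). Alyref, an mRNA export adaptor, Hdac2, a histone deacetylase, and Ass1, which makes argininosuccinate, had -1.99, -1.89 and -1.99, and for each of them all 7 libraries with Glycam1 lay below all 5 without. With the side as a term these 3 had -0.25, -0.03 and -0.81, and none passed. None passed with IL-33 library 3 alone either (-1.26, -1.10 and -1.51). Alyref ended as a call without combined library 2 (adjusted p = 0.0542), Hdac2 without IL-25 library 1 (adjusted p = 0.0569), and Ass1 without either (adjusted p = 0.0542 and 0.0521, in edgeR). Ptms, Stag1, Sat1, Pcgf1, Hdhd5, Ckap4 and Ppih completed the 15 largest below the product, between -2.18 and -1.73, and the calls of 6 of them ended in 7 to 10 of the 12 leave-one-out fits. Of these 7 only Hdhd5 passed with IL-33 library 3 alone, and it did not in limma-voom (adjusted p = 0.0529). The call of Pcgf1 ended without vehicle library 3 (adjusted p = 0.0585), IL-25 library 1 (adjusted p = 0.0569) or combined library 2 (adjusted p = 0.0542).

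Above the product, Nod1, an intracellular sensor of bacterial peptidoglycan, measured 26.8, 19.9 and 31.3 CPM with vehicle, 26.6, 22.7 and 34.1 with IL-25, 10.2, 10.9 and 12.0 with IL-33 alone and 45.8, 50.9 and 31.2 with both. The IL-33 libraries were the lowest without overlap. The interaction of Nod1 was 1.88 ± 0.37 (adjusted p = 0.0115) and 1.73 ± 0.48 with IL-33 library 3 alone (adjusted p = 0.0467), called on leaving out each library in turn, all in edgeR. Sp3, a general transcription factor, had 1.91 ± 0.39 (adjusted p = 0.0118), did not overlap between the sides, and had 0.25 with the side as a term; its call ended without combined library 2 (adjusted p = 0.0542). H3f3c and Ggact had 2.32 and 1.75, and each call ended in 9 of the 12 leave-one-out fits (adjusted p up to 0.222 and 0.152 in edgeR) and without a filter on low counts (adjusted p = 0.0550 and 0.0519); that of Ggact also ended in limma-voom (adjusted p = 0.0533). H3f3c, annotated in GENCODE M21 as a processed pseudogene, is nearly identical to the H3.3 genes and its counts may be shared with them.

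The remaining genes of the 15 largest above the product were all on the Glycam1 division. Glycam1 (chromosome 15, 103562759 to 103565081, minus strand) measured 116, 223 and 439 CPM with vehicle, 0 in all IL-25 libraries, 0.731, 0 and 133 with IL-33 alone and 152, 150 and 154 with both. The combined libraries lay within the vehicle range, and IL-33 library 3 was like them while the other IL-33 libraries were near 0. The pooled level with vehicle was at least 354-fold higher than with IL-25, with the IL-25 group set to 3 counts over its 3 libraries. Clu, the chaperone clusterin, measured 24.2, 69.1 and 353 CPM with vehicle, at most 0.648 with IL-25, 0, 0 and 38.8 with IL-33 alone and 56.7, 50.9 and 41.4 with both. C3, a complement component, measured 11.1, 25.8 and 58.8 CPM with vehicle, at most 1.30 with IL-25, 0, 0 and 7.39 with IL-33 alone and 16.7, 23.0 and 12.7 with both. Apoe, a lipid carrier, measured 82.4, 132 and 700 CPM with vehicle, 11, 12 and 6.96 with IL-25, 32.1, 16.6 and 86.8 with IL-33 alone and 102, 87.5 and 79.6 with both, with an interaction of 5.95 ± 0.91 (adjusted p = 0.00105 in edgeR). Igfbp7, a secreted binding protein of vessels and stroma, had 6.46 ± 0.90 (adjusted p = 0.000535), and 0.14 with the side as a term.

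Of 7 tested genes of class II antigen presentation 4 passed in edgeR, beside 2.35% of all tested genes, all above the product and all on the division. DESeq2 called 2 of the 7 and limma-voom 4. The median of the 7 was 3.97 (also with H2-Eb1 at its bound of 3 counts) and 0.22 with the side as a term. H2-Aa, the alpha chain of I-A, whose promoter is printed above, measured 29.4, 49.2 and 69.3 CPM with vehicle, 1.94, 1.42 and 2.09 with IL-25, 5.84, 0 and 36.9 with IL-33 alone and 59.6, 62.4 and 46.5 with both. The combined libraries overlapped with vehicle, and IL-33 library 3 lay between the lowest vehicle library and the others. H2-Aa had an interaction of 6.77 ± 0.90 (adjusted p = 0.000535), 5.23 ± 0.53 with IL-33 library 3 alone, and 1.63 ± 1.18 with the side as a term (adjusted p = 0.6), all in edgeR. H2-Eb1, the beta chain of I-E, measured 6.54, 19.9 and 33.2 CPM with vehicle, at most 0.708 with IL-25, 2.92, 0.723 and 13.9 with IL-33 alone and 18.2, 21.3 and 19.7 with both. H2-Ab1, the beta chain of I-A, and Cd74, the invariant chain, had 3.97 ± 0.74 (adjusted p = 0.00794) and 4.62 ± 0.84 (adjusted p = 0.00679), and -0.14 and 0.78 with the side as a term. These 4 genes were called on leaving out each library in turn, and Ciita, the class II transactivator, was in the list but has no row in the table. Beside them, the summed level of dendritic cell and macrophage markers, of which 4 of 12 have a row, was 361 to 408 CPM with vehicle, 389 to 407 with IL-25, 302 to 355 with IL-33 and 344 to 369 with both, and Itgax, Csf1r, C1qa and Flt3 have no row. Markers of B cells, with 2 of 8 in the table, summed to 135 to 195, 203 to 283, 115 to 147 and 175 to 216 CPM in the same order, and Ms4a1 and Pax5 have no row. With IL-25 the first sum lay within the vehicle range and the second above it. These sums rest on few markers, and the part of such cells in the class II pattern was not tested.

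**Figure D5:**
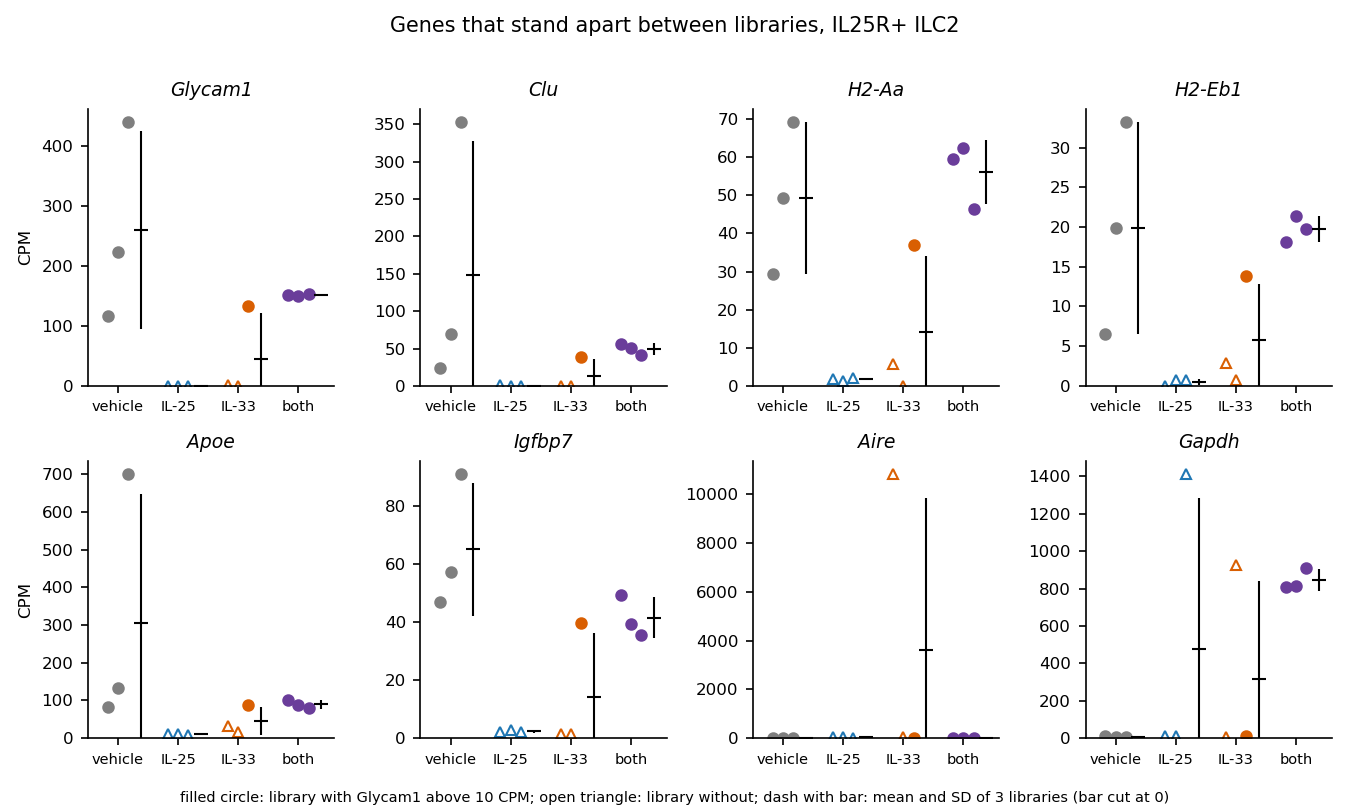
CPM (y axis, from 0) of 8 genes in each of the 12 libraries by treatment (x axis), with the mean and SD of 3 libraries (bars end at 0); filled circles are the 7 libraries with Glycam1 above 10 CPM and open triangles the other 5. IL-33 library 3 lies with the vehicle and combined libraries for H2-Aa, at 36.9 CPM against 5.84 and 0 in the other IL-33 libraries. Aire is high in 1 IL-33 library, and Gapdh in all combined libraries and in 1 library of each single-cytokine group.

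Some markers of other cells moved with these genes and others did not. Fibroblast and endothelial markers, with 4 of 10 in the table and all 4 tested, summed to 105 to 121 CPM with vehicle, 153 to 169 with IL-25, 90.6 to 161 with IL-33 and 208 to 227 with both. 2 of them, Dcn and Col1a2, passed above the product, beside 1.04% of all tested genes. Both were on the division, higher in the 7 libraries, as were 1.01% of all tested genes. The other 2, Pdgfrb and Pecam1, did not pass. With IL-25 they made up the whole sum, which was above the vehicle sums, since Dcn and Col1a2 had 0 counts there. Dcn, the matrix proteoglycan decorin, measured 5.88, 14.1 and 14.2 CPM with vehicle, 0 with IL-25, 0.731, 0 and 6.47 with IL-33 alone and 10.2, 16.4 and 9.55 with both. Col1a2, a chain of type I collagen, measured 5.23, 10.5 and 15.2 CPM with vehicle, 0 with IL-25, 0, 0 and 14.8 with IL-33 alone and 6.54, 15.3 and 10.8 with both, and its call ended in 6 leave-one-out fits (adjusted p = 0.0627 to 0.0876 in edgeR). Col1a1, Col3a1, Pdgfra and Cdh5 have no row. Secretory epithelium and milk genes other than Glycam1, which defines the division, were 3 in the table and include Clu. They summed to 60.2 to 403 CPM with vehicle, 31.9 to 39.7 with IL-25, 37.6 to 69.3 with IL-33 and 99.0 to 111 with both. Clu alone measured 24.2 to 353 CPM with vehicle and at most 0.648 with IL-25. The other 2, Wfdc18 and Wfdc21, had interaction estimates below 0 and were not called. In such bulk samples a change in the number of cells of a type and a change in RNA per cell cannot be told apart, and the part of other cells in the interactions was not tested. T cell markers, with 10 of 14 in the table, summed to 2071 to 2271 CPM with vehicle and 1610 to 1760 with both, and 0 of 7 tested passed. Cd3g, a chain of the T cell receptor complex, was present in all libraries at 164 to 422 CPM, lowest with both (206, 166 and 164), with an interaction of -0.93 ± 0.26 (adjusted p = 0.0565 in edgeR), past the threshold in DESeq2 (-0.93, adjusted p = 0.0267) and without IL-33 library 3 (-1.10, adjusted p = 0.00277). The sorted cells' label rests on the IL-25 receptor, whose Il17rb was at 10.8 to 34.0 CPM in every library, and Gata3 was at 97.4 to 245 CPM. Of the markers of NK cells and ILC1 0 of 3 tested passed, of B cells 0 of 1, of dendritic cells and macrophages 0 of 2 and of mast cells, basophils and eosinophils 0 of 1, while no marker of ILC3 had enough counts for the test. At an unadjusted p under 0.05 in edgeR the T cell markers held 1 gene, those of NK cells and ILC1 1, those of mast cells, basophils and eosinophils 1 and the others 0, beside 17.1% of all tested genes; DESeq2 called 1 T cell marker, and limma-voom called 0 in these lists.

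The levels of Aire and Gapdh differed widely between libraries of 1 group. Aire, the transcription factor of medullary thymic epithelium, was listed at 10816 CPM in IL-33 library 1 and at 28.2 and 0 in the other IL-33 libraries. It measured 36.3, 29.8 and 24.3 CPM with IL-25 and at most 1.90 with vehicle or both. All 7 libraries with Glycam1 thus lay below all 5 without, as for 1.11% of all tested genes. Aire was called below the product in edgeR (adjusted p = 0.0118). The call ended without IL-25 library 1 (adjusted p = 0.0515 in edgeR) or combined library 2 (adjusted p = 0.0534 in edgeR). It also ended in limma-voom (adjusted p = 0.435) and with IL-33 library 3 alone. With the side as a term the fitted value was 12.85 ± 22.0 (SE). Foxn1, Psmb11, Krt5 and Krt8, other genes of thymic epithelium, have no row. Gapdh, a glycolytic enzyme with many processed copies, measured 10.5, 8.20 and 3.80 CPM with vehicle, 11.7, 12.8 and 1412 with IL-25, 8.04, 924 and 11.1 with IL-33 alone and 811, 815 and 913 with both. Every combined library and 1 library of each single-cytokine group were high, and the interaction was -4.51 ± 2.09 (adjusted p = 0.271 in edgeR).

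The 14 genes that passed with the side of the division as a term were a separate set. 12 lay above the product and 2 below, and 0 of them passed with all 12 libraries and no such term. In this fit IL-33 library 3 enters with a weight of -2 and IL-33 libraries 1 and 2 with 0.5 each. Cd44, an adhesion receptor for hyaluronan that was chosen after its values were seen, measured 1.31, 4.69 and 1.90 CPM with vehicle, 13.6, 11.3 and 15.3 with IL-25, 2.19, 3.62 and 17.5 with IL-33 alone and 11.6, 10.9 and 15.3 with both. IL-33 library 3 lay above the other IL-33 libraries and above all libraries with IL-25. The value with the side as a term was -5.50 ± 1.09 (adjusted p = 0.0320), against -1.67 ± 0.82 without it (adjusted p = 0.301 in edgeR). Rpph1, the RNA of ribonuclease P, also chosen afterwards, measured 70.2 CPM in IL-33 library 3 against 24.1 and 15.2 in the others, with -4.53 ± 0.81 (adjusted p = 0.0145) and -1.70 ± 0.74 without the term (adjusted p = 0.233). The 12 above the product, named here after their values were seen, included Mbnl1 and Son, both RNA processing factors, and Rap1b, a small GTPase. Rap1b was at 346, 310 and 142 CPM and Mbnl1 at 597, 541 and 265 CPM in IL-33 libraries 1, 2 and 3, so that library 3 was the lowest of its group for both.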

How the data were processed

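The authors deposited whole-number counts per gene for each library; whether they count reads or molecular identifiers is not given in the sources used here. Per the submitters' processing notes, bcl2fastq, cutadapt, STAR 2.5.2b, HTSeq, DESeq2 and build mm10 were used. The table lists 10696 genes, total counts ran from 834913 to 1880906, and 0 columns were left unmapped. A level of a few CPM rests on a few counts, which limits the precision of low genes.

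edgeR's filterByExpr (minimum count 10, total 15, proportion 0.7) left 8850 genes. Libraries were scaled by TMM, and edgeR 4.0.16 in R 4.3.3 fitted 1 coefficient a group over all 12 libraries with the quasi-likelihood test, adjusted by Benjamini-Hochberg at 0.05. The SE is the absolute log2 value over the square root of F. The biological coefficient of variation was 0.128. Between replicates, chi-square per degree of freedom was 1.86 to 3.20 with vehicle, IL-25 or both and 5.48 to 7.81 with IL-33, so no libraries were merged. Genes with 3 counts or fewer in a group are given as levels, apart from values of Aire, Col1a2 and Cxcl1 that changed sign. Where a group is at or under 3 counts, the bound sets it to 3 counts over its libraries. The test was also run on simulated counts, which held no Glycam1 division within the IL-33 group, and the outcome is not reported here. DESeq2 1.42.0 and limma-voom (limma 3.58.1) were alternatives, with the others named in the closing section. Positions are from GENCODE M21.

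The comparison, the gene lists and the alternatives were chosen with earlier results of these data known. Named genes are, in each direction, the 15 called genes of largest absolute log2 value whose mean reached 10 CPM, 25 genes always reported, every list member that passed and up to 4 more a list; the text names a part of these, chosen after their values were seen, as were genes so marked.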

Additional observations from a re-analysis of the deposited data

How the results depend on the processing

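The 208 calls numbered 208 with DESeq2 size factors (206 shared), 167 without a filter on low counts (153 shared), 201 at a mean of at least 10 CPM (198 shared), 180 in DESeq2 (63 higher and 117 lower, 156 shared, with 22 of the 208 given no adjusted p) and 188 in limma-voom (173 shared). With the side of the Glycam1 division as a term 12 genes were higher and 2 lower. That fit also turned Rps6 to 0.17 ± 0.32, H2-Ab1 to -0.14 ± 1.08, S100a11 to 0.25 ± 0.58 and Ppih to 0.38 ± 1.02 (SE), none past the threshold. Col1a2 (-0.99, SE 1851), Aire (12.85, SE 22.0) and Cxcl1 (-0.057, SE 89.4) changed sign too. Each of these has a group with 3 counts or fewer, so their values give no direction. The cause was not tested. With IL-33 library 3 alone 101 genes were higher and 82 lower. On leaving out 1 library the higher genes numbered 23 to 317 and the lower ones 15 to 389, the least without combined library 2 and the most without IL-33 library 3; the total was 66 to 130 without a vehicle library, 56 to 101 without an IL-25 library, 151, 160 and 706 without an IL-33 library and 38 to 108 without a combined one. With the replicate block 160 genes passed (73 higher and 87 lower, 152 shared); of the genes named in the text Ets1, Rpl7, Ggact, Ckap4, Ppih and Tgfb3 were not among them, and Cd3g was. The numbers did not pair the libraries: libraries with the same number had correlations of -0.126 to 0.129 of their deviations from group means, and 3 of 12 correlated best with their own number. Depth limited the low genes: Il5 and Il9 had too few counts for the test.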
